A study of Mus musculus with 40 samples.

Results

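The comparison set 3 activated against 3 resting RNA-seq libraries of thymus-derived regulatory T cells (tTregs), 6 of the 24 libraries in the series' gene table. The 6 were taken by their sample labels, which name the cells nTreg and their state activated or resting. tTregs were sorted as CD4+ Foxp3-GFP+ cells from the spleen of Foxp3-GFP reporter mice on the C57BL/6 background, 2 to 4 months old. Both groups therefore carry the same reporter allele. Such a gate takes every CD4+ cell that expresses Foxp3, so that Tregs of thymic origin were not separated from Tregs induced in the periphery. The authors describe the activation as TCR stimulation. How long the activated tTregs were stimulated, and with which reagents and doses, is not given for these libraries in the sources used here. Conventional CD4+ T cells (Tconvs) from the same table, 3 activated and 3 resting, served for a comparison of the response.

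Foxp3 is the transcription factor that defines Tregs, which suppress other T cells and keep self-tolerance. Engagement of the T cell receptor (TCR) opens calcium channels and drives NFAT, AP-1 and NF-kB into the nucleus. In conventional T cells it is followed by growth, a shift of metabolism and entry into the cell cycle. Tregs of the thymic lineage are known to keep Foxp3 after stimulation, and those that have met antigen become effector Tregs, with higher BATF and IRF4 and with receptors for entry into tissues. The genes below are ordered by what they are known to do, first Treg identity, then signaling, surface receptors, interferon response and quiescence, and then the cell cycle, metabolism and protein synthesis.

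The values were gene counts divided by a library size factor (normalized counts), so that levels can be compared between libraries for a given gene but not between genes of different length. The libraries held 5256800 to 9893053 reads on genes and 12581 to 13186 genes above 0, and 3 reads corresponded to 2.72 to 5.45 normalized counts. Replicates of a group differed by more than counting noise. They are separate samples in the labels, which do not say that they came from separate mice, so that the p-values measure the spread between these samples only. Ms4a1, Lyz2, Tyrobp, Hbb-bs and S100a8, which define other blood cells, had no read in any of the 6 libraries. Other markers of such cells, among them Cd79b, Cr2 and Cst3, did have reads. The sums of all marker lists are given with the check of other cell types below. Of the immediate early genes, which respond within minutes to handling as well as to the TCR, Jun lay at 1747, 418 and 592 normalized counts in activated and at 526, 719 and 1874 in resting tTregs (replicates 1, 2 and 3, in this order throughout). Junb lay at 6011, 2932 and 4089 against 566, 3763 and 2993. Both spread more within a group than between the groups.

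Activation raised 953 of the 10814 genes tested, 8.81%, and lowered 754, 6.97%, at an adjusted p under 0.05 and an absolute log2 fold change above 0.5. A gene past both thresholds is said below to have risen or fallen. The counts of each list below are to be read against these shares of all genes. Over all of these genes the median log2 fold change was -0.00095. Changes were mostly modest: 94 genes rose and 17 fell at least 4-fold. In bulk RNA, more cells expressing a gene and more RNA per cell cannot be told apart. The number of genes past the thresholds depended on single libraries. It was 780, 1890 and 600 without activated replicate 1, 2 or 3, and 1108, 696 and 1392 without resting replicate 1, 2 or 3, against 1707 with all 6.

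The response also moved with the length of the gene. Of the genes in the quintile with the shortest exons (median 1844 bases), 359 rose and 58 fell, and in the quintile with the longest (median 9965.5 bases), 80 rose and 288 fell. The median log2 fold change went from 0.21 in the shortest to -0.20 in the longest quintile. In Tconvs the same medians were 0.27 and -0.34. With a smooth trend on exon length removed, 758 genes rose and 583 fell, and 1163 of the 1707 were shared. Below, counts with this trend removed stand beside the groups in which they differed most. The part of exon length in these results was not tested.

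**Figure D1:**
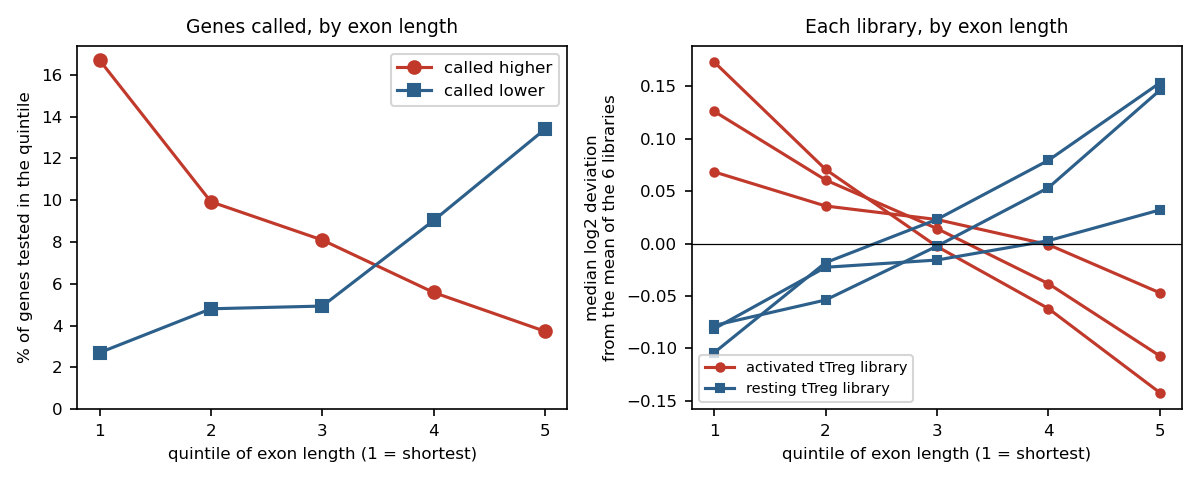
Response of tTregs by exon length. The genes tested are split into quintiles by the total length of their exons, from shortest to longest; the left panel shows the percent of genes in each quintile that rose or fell in activated tTregs, and the right panel the median log2 deviation of each of the 6 libraries from their mean. Rises fall from 16.7% to 3.72% and falls climb from 2.7% to 13.4%.

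Among the 15 largest rises, most belonged to genes of DNA replication and mitosis. Pclaf, a factor that binds the replication clamp PCNA, lay at 145, 163 and 119.9 normalized counts in activated and at 9.98, 6.49 and 5.7 in resting tTregs, a log2 fold change of 4.12 ± 0.28 (SE, n = 3 against 3, adjusted p = 0.000436). Mcm10, which helps to start replication forks, lay at 91.6, 79.5 and 89 against 4.54, 2.6 and 5.7 (log2 fold change 4.10 ± 0.33, adjusted p = 0.000554). Kntc1, a kinetochore protein, lay at 68.7, 58.7 and 69 against 3.63, 6.49 and 3.42 (3.63 ± 0.33 on the log2 scale, adjusted p = 0.000964). Their resting values were at or close to the level of a few reads. Genes were eligible for this set only if the groups did not overlap. Pclaf, Mcm10 and Kntc1 passed the filter on level only through the activated libraries, so that their direction was given in advance.

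The other large rises were in genes of unlike function. Cyp11a1, the mitochondrial enzyme that turns cholesterol into pregnenolone at the start of steroid synthesis, lay at 112, 129.6 and 169 against 12.7, 15.6 and 7.97 normalized counts (log2 fold change 3.42 ± 0.30, adjusted p = 0.000794). Serpine2, a secreted inhibitor of serine proteases, lay at 287, 243 and 242 against 30.8, 19.5 and 55.8 (2.95 ± 0.34, adjusted p = 0.00218). Pdzk1ip1, a small membrane protein, rose from 11.9 ± 0.688 to 112 ± 6.98 (SD, n = 3). Tmod1, which caps actin filaments, was far less even at rest, at 1.81, 0 and 15.9, and lay at 68.7, 52 and 58.1 in activated tTregs (4.05 ± 0.88, adjusted p = 0.018). Of its exon bases 32.6% lie also in another gene, and the library kit did not mark the strand, so that its reads cannot be told apart from those of that gene.

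The largest falls were in genes of unlike function, some of which are described with their groups below. Atp8a2, a phospholipid flippase, lay at 4.04, 14.2 and 25.4 in activated and at 81.6, 94.7 and 63.8 in resting tTregs (log2 fold change -2.66 ± 0.54, adjusted p = 0.0147). Rflnb, a regulator of filamin, lay at 36.4, 39.7 and 41.8 against 199.6, 244 and 197 (-2.41 ± 0.17, adjusted p = 0.000436). Dtx4, a ubiquitin ligase of the Notch pathway, fell from 89.5 ± 6.58 to 18.2 ± 4.29 normalized counts (SD, n = 3). Myo6, an unconventional myosin, stood at the highest level of these, 1016, 899 and 927 at rest, and at 210.1, 307 and 198 after activation (-2.01 ± 0.18, adjusted p = 0.000938). Rgs2, which turns off G protein signals, fell by 1.72 on the log2 scale (SE 0.23, adjusted p = 0.00391).

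**Figure D2:**
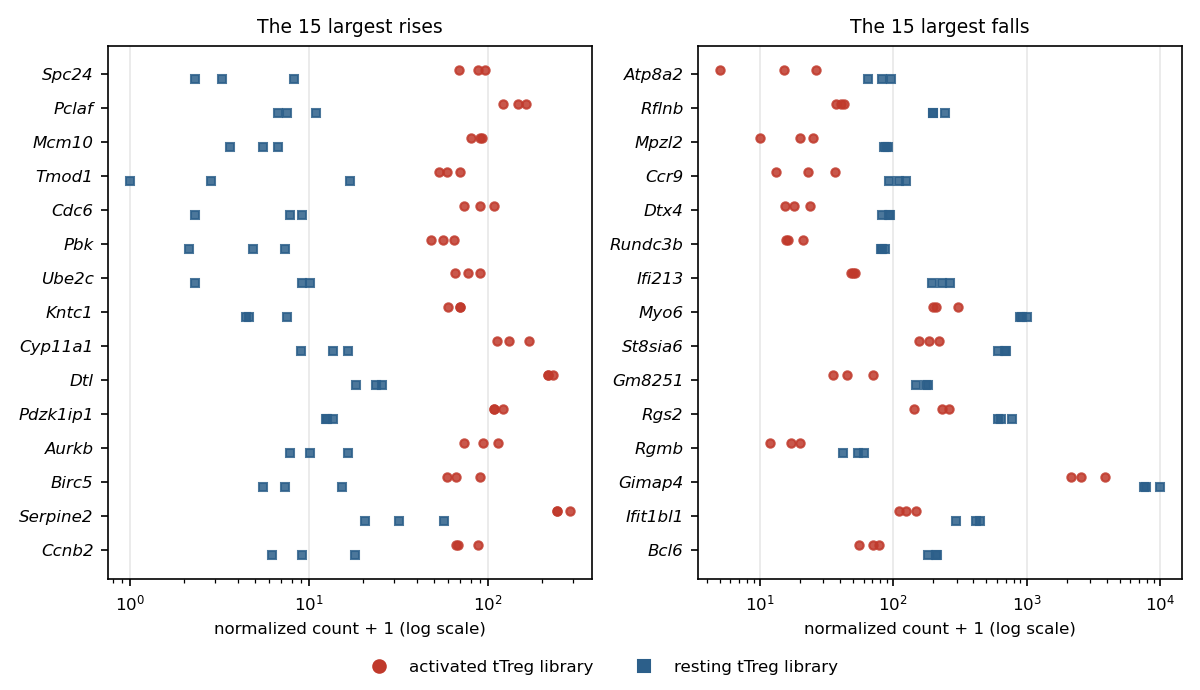
The genes with the largest rises and falls. Each point is the normalized count plus 1 of a library (log axis) for activated and resting tTregs, 3 of each; only genes past both thresholds whose groups do not overlap and whose higher group had a mean of at least 50 were eligible. Spc24 shows the largest rise, from 7.26, 1.3 and 2.28 to 95.6, 68.1 and 87.2, and Atp8a2 the largest fall.

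Most genes of Treg identity, like most of all genes tested, did not pass the test. Of 21 tested, 2 rose and 0 fell, with a median log2 fold change of 0.03. The share that rose, 9.52%, was close to the 8.81% of all genes tested, while 6.97% of all genes fell. By edgeR and with quantile normalization 2 fell, 3 fell without activated replicate 2, and the rises ran from 1 to 4 when a library was left out. Foxp3 lay at 7171, 6816 and 7951 normalized counts in activated and at 7218, 7767 and 7627 in resting tTregs (log2 fold change -0.05 ± 0.11, adjusted p = 0.794), so that the groups overlapped. Il2ra, the high-affinity chain of the IL-2 receptor, lay at 6001, 7299 and 6169 against 7315, 6550.2 and 6389.7 (-0.06 ± 0.12, adjusted p = 0.758). The groups also overlapped for Ikzf4, which encodes Eos, a partner of Foxp3 (0.03 ± 0.12, adjusted p = 0.889), and for Ctla4, which strips costimulatory ligands from antigen-presenting cells (-0.44 ± 0.20, adjusted p = 0.148). Ikzf2, which encodes Helios, lay at 5610.1, 7313 and 7226 against 10382, 9218 and 8609.6. Its groups did not overlap and its adjusted p was 0.0448, but its log2 fold change of -0.49 ± 0.14 did not reach the threshold. The 2 genes that rose were Socs2, a brake on cytokine signaling (0.82 ± 0.16, adjusted p = 0.0136), and Capg, an actin-capping protein (0.74 ± 0.11, adjusted p = 0.00571).

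Genes of the effector Treg program rose more often. Of 24 tested, 10 rose and 1 fell, and the median log2 fold change was 0.41. Ccr8, the chemokine receptor of Tregs in tissues, lay at 222, 264 and 285 in activated and at 84.4, 83 and 79.7 in resting tTregs (log2 fold change 1.62 ± 0.16, adjusted p = 0.00117). Batf, a transcription factor needed for effector Treg differentiation, lay at 846, 812 and 725 against 498, 393 and 380.4 (0.91 ± 0.15, adjusted p = 0.0069). Its partner Irf4 lay at 335, 472 and 354 against 266, 210.2 and 173 (0.84 ± 0.20, adjusted p = 0.0255). The groups of all 3 genes were apart. The galectin genes Lgals1 and Lgals3, whose products bind cell surface glycans, rose by 1.07 ± 0.11 and 1.14 ± 0.21, and Anxa2 by 1.08 ± 0.19 (log2 fold change ± SE). Tnfrsf1b, which encodes the TNF receptor TNFR2, lay at 3919, 3886 and 4503 against 2759, 2430.4 and 2665 (0.65 ± 0.12, adjusted p = 0.00954). The gene that fell was Il1rl1, the receptor of IL-33, by 0.55 on the log2 scale (SE 0.16, adjusted p = 0.0498). Between 8 and 11 of the list rose when a library was left out. Rises in this list were not particular to tTregs. In Tconvs, by the fit over 12 libraries described below, 12 of the 24 rose and 9 fell, with a median log2 fold change of 0.455. The difference between the responses, tTreg minus Tconv, was above 0 for 9 genes and below 0 for 8.

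**Figure D3:**
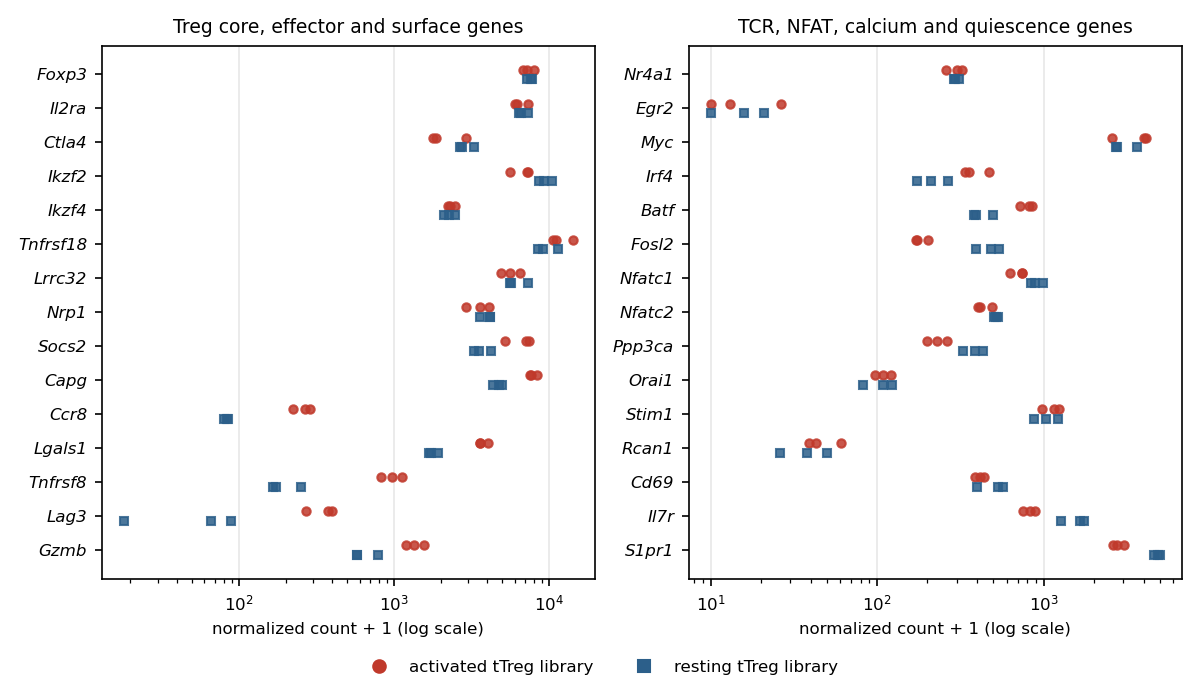
Genes of Treg identity and of the effector Treg program (left) and of TCR, NFAT, calcium and quiescence (right). Each point is the normalized count plus 1 of a library on a log axis, for 3 activated and 3 resting tTregs. The points of Foxp3 overlap between 6816 and 7951, whereas those of Ccr8 lie at 222 to 285 after activation and at 79.7 to 84.4 at rest.

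Of 23 transcription factors that the TCR induces within hours, 3 rose and 1 fell. The median log2 fold change was 0.04, with members from -1.36 to 1.36. Beside Batf and Irf4 the riser was Irf8, at 238, 196 and 158 against 48.1, 114 and 77.5 normalized counts (1.36 ± 0.31, adjusted p = 0.0206). The gene that fell was Fosl2, an AP-1 subunit, at 202, 169 and 173 against 391, 536 and 484 (-1.36 ± 0.16, adjusted p = 0.00262). Nr4a1, an orphan receptor gene often used as a gauge of TCR signal strength, lay at 320.5, 259 and 299.7 against 288, 295 and 308 (-0.02 ± 0.14, adjusted p = 0.921). Myc, the driver of growth after activation, lay at 4095, 2586 and 4009 against 2764, 2737 and 3640.2 (0.21 ± 0.20, adjusted p = 0.492). Cd69, an early surface marker of activation, lay at 385, 415 and 436 against 569.7, 529 and 396 (-0.26 ± 0.16, adjusted p = 0.289). For these last 3 genes the groups overlapped.

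Genes of the TCR signaling machinery fell more often than they rose. Of 37 genes of the receptor and its proximal kinases, adaptors and phosphatases, 12 fell and 4 rose (median log2 fold change -0.26), and with the trend on exon length removed 7 fell and 3 rose. Cd3e, a signaling chain of the receptor, lay at 3258, 3378 and 3531 against 5104, 4878 and 4521 (-0.51 ± 0.11, adjusted p = 0.0161). Themis, an adaptor of TCR signaling, lay at 288, 351 and 329 against 659, 590.4 and 501 (-0.85 ± 0.15, adjusted p = 0.00938). Ubash3a, a phosphatase that dampens TCR signals, lay at 1503, 1688 and 1575 against 2860.2, 2622 and 2422 (-0.73 ± 0.12, adjusted p = 0.00681). Members on both sides of the pathway, activating and inhibitory, were thus among those that fell. The genes that rose were Cd5 (0.62) and Cd6 (0.66), both scavenger-type receptors that tune the TCR, the costimulatory receptor Cd28 (0.50) and the phosphatase Ptpn6 (0.51, log2 fold changes). The number that fell was 6, 13 and 4 without activated replicate 1, 2 or 3, and 7, 4 and 11 without resting replicate 1, 2 or 3. With quantile normalization 1 rose.

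In the calcium and NFAT arm the changes past the thresholds were falls. In lists this short, 0 rises are near the 8.81% of all genes tested that rose. Of 17 genes of NFAT, calcineurin and its modulators, 5 fell (29.4%, against 6.97% of all genes) and 0 rose, with a median log2 fold change of -0.33. Those that fell encode calcineurin subunits (Ppp3ca, Ppp3cb and Ppp3r1) and the kinases Dyrk1a and Gsk3b, which return NFAT to the cytosol. Ppp3ca, a catalytic subunit, lay at 263, 199 and 229 against 386, 432 and 328 (-0.73 ± 0.17, adjusted p = 0.0209). With the trend on exon length removed, 1 gene of this list fell. With libraries left out in the order above, the number was 2, 3, 0, 1, 0 and 4. Nfatc1 lay at 738, 625 and 745 against 845, 993 and 882 (-0.37 ± 0.13, adjusted p = 0.0858), and Nfatc2 had an adjusted p of 0.2. Of 24 genes of calcium entry, release and clearance, 4 fell, 16.7%, and 0 rose (2 fell and 1 rose with the length trend removed). Orai1, the pore of the store-operated channel, lay at 108, 96.5 and 119.9 against 122, 81.7 and 107 (0.08 ± 0.20, adjusted p = 0.816). Stim1, its sensor in the endoplasmic reticulum, lay at 1240.3, 976 and 1152 against 874, 1039 and 1213 (0.11 ± 0.16, adjusted p = 0.644). Itpr1, a channel that releases calcium from the endoplasmic reticulum, fell by 0.61 (log2 scale, SE 0.16, adjusted p = 0.0329). The falls in the calcium list were 0, 4, 1, 1, 0 and 6 with libraries left out in the same order.

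NF-kB genes went the other way. Of 24 tested, 7 rose and 1 fell, with a median log2 fold change of 0.15. Rel, the c-Rel subunit on which Treg development depends, lay at 3960.5, 3523 and 4434 against 2512, 2437 and 2415 (0.69 ± 0.12, adjusted p = 0.00879). Nfkb2, of the alternative pathway, lay at 2121, 1476 and 1762 against 752, 1112 and 1211 (0.81 ± 0.21, adjusted p = 0.031). Nfkbia, the inhibitor that NF-kB itself induces, rose by 0.64 ± 0.17 (adjusted p = 0.0351), while Tnfaip3, the deubiquitinase A20 that ends the signal, lay at 680, 724 and 857 against 1216, 1326 and 1018 (-0.65 ± 0.15, adjusted p = 0.0213). Without activated replicate 1 or 3, or without resting replicate 2, 1 gene of the list rose, and 5 or 7 without any other library.

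In the PI3K-AKT list 8 of 28 genes fell and 0 rose, with a median log2 fold change of -0.29, and 4 fell with the length trend removed. Of these 8, Inpp5d, Inpp4b, Phlpp1 and Tsc1 encode brakes of the pathway, while Pdk1 encodes a mitochondrial kinase that acts outside it. Inpp4b, a lipid phosphatase, lay at 5148, 7139 and 6488 against 13669, 11264 and 10617 (-0.93 ± 0.16, adjusted p = 0.00781). Phlpp1, which removes a phosphate from AKT, lay at 885, 836 and 1104 against 1703, 1814 and 1641 (-0.88 ± 0.14, adjusted p = 0.00643). Foxo1, the transcription factor that AKT expels from the nucleus, fell by 0.71 on the log2 scale (SE 0.15, adjusted p = 0.0166). Falls in this list were 3, 7, 3, 4, 3 and 8 with libraries left out in the same order. Among 13 genes of MAPK feedback, the phosphatase gene Dusp14 rose (1.50 ± 0.23, adjusted p = 0.00643), and Dusp1 (-0.83) and Dusp10 (-0.63) fell.

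Surface receptors changed in both directions. Of 20 costimulatory receptors and activation markers, 6 rose and 2 fell, with a median log2 fold change of 0.31 (4 rose and 2 fell with the length trend removed). Tnfrsf8, which encodes CD30, lay at 825, 1120.1 and 970 against 250.4, 166 and 173 (2.31 ± 0.19, adjusted p = 0.000699). Tfrc, the transferrin receptor that proliferating cells need for iron, lay at 1406, 1527 and 1617 against 872, 915 and 731 (0.86 ± 0.13, adjusted p = 0.00612). Cd226, an activating receptor that competes with TIGIT, lay at 236, 403 and 285 against 721, 541 and 587 (-1.02 ± 0.21, adjusted p = 0.0152). The groups of all 3 genes were apart. Tnfrsf18, which encodes GITR, and Icos overlapped between the groups (adjusted p = 0.216 and 0.458). Rises in this list were 2 without activated replicate 3 and 3 without resting replicate 2, and 4 to 7 without any other library.

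Co-inhibitory receptors did not move together. Lag3 lay at 377, 269 and 398 in activated and at 17.2, 64.9 and 87.7 in resting tTregs (2.86 ± 0.51, adjusted p = 0.00961). Pdcd1, which encodes PD-1, lay at 1033, 1764 and 1008 against 2748, 2020.4 and 2002 (-0.87 ± 0.23, adjusted p = 0.037). Havcr2 (TIM-3) rose by 0.74 ± 0.20 and Cd200, the ligand of an inhibitory receptor on myeloid cells, by 0.82 ± 0.21 (log2 fold change ± SE), so that 3 of 14 rose and 1 fell (2 fell with the length trend removed). Leaving out any library but resting replicate 1 gave 1 rise, and without activated replicate 2 there were 4 falls. Adora2b, a receptor of adenosine, rose from 3.37 ± 2.05 to 21.4 ± 4.76 normalized counts (SD, n = 3), the former about the level of 3 reads.

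Among cytokine receptors, falls outnumbered rises. Of 27 tested, 7 fell and 2 rose. Il7r, the receptor by which resting T cells receive survival signals, lay at 746, 822 and 892 against 1753, 1643 and 1267 (-0.91 ± 0.15, adjusted p = 0.00781). Il6ra, which lets IL-6 act on T cells, lay at 228, 165 and 151 against 434, 461 and 434 (-1.31 ± 0.17, adjusted p = 0.00385), and the IL-18 receptor gene Il18r1 at 238, 299 and 203 against 647, 568 and 548 (adjusted p = 0.00385). Il1r2, a decoy receptor that binds IL-1 without signaling, lay at 226, 378 and 238 against 70.8, 54.5 and 63.8 (2.11 ± 0.23, adjusted p = 0.00164). Il2rb, the IL-2 receptor chain that signals, lay at 11016, 13800 and 12470 against 16327, 15611 and 14788, with an adjusted p of 0.0887.

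Of 17 chemokine and sphingosine receptors, 3 rose and 3 fell, and 5 fell with the length trend removed. Each share was 17.6%, where 8.81% of all genes tested rose and 6.97% fell. Beside Ccr8, Ccr7, which guides cells to the T cell zone of lymph nodes, lay at 13429, 10800 and 14719 against 7769, 8249 and 6894 (0.76 ± 0.14, adjusted p = 0.0113). S1pr1, by which T cells leave lymphoid organs, lay at 2627, 3048 and 2761 against 4878, 4971 and 4591 (-0.78 ± 0.11, adjusted p = 0.00506). Ccr9, a receptor for homing to the gut, lay at 12.1, 36 and 21.8 against 124, 92.1 and 109 (-2.29 ± 0.36, adjusted p = 0.00662). Another gene covers 21.5% of its exon bases. Of 21 integrins and adhesion genes, 4 fell and 1 rose. Itga4, a chain of the integrins VLA-4 and LPAM-1, lay at 1364, 1640.5 and 1386 against 3437, 2609.5 and 2747 (0.501 times the resting level on the fitted scale, adjusted p = 0.00526). Itgb8, with which Tregs activate latent TGF-beta, lay at 1219, 1494 and 1279 against 956, 732 and 743 (0.72 ± 0.15, adjusted p = 0.0155).

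Of the 14 effector cytokine genes tested, 0 passed the thresholds by limma and 5 had an unadjusted p under 0.05, while edgeR called 1 lower (Tnfsf8, the ligand of CD30, named after its value was seen) and DESeq2 also 1. Of the lymphokine genes Il2 and Il10, which were too low to be tested, Il2 lay at 5.39, 6.62 and 1.82 against 1.81, 3.89 and 1.14 and Il10 at 6.73, 7.57 and 7.27 against 10.9, 2.6 and 10.3, all at the level of a few reads. A difference in them was not detectable at this depth. Of 11 granzymes and death ligands, 2 rose. Gzmb, a protease of cytolytic granules that Tregs also use, lay at 1199.9, 1571 and 1339 against 791, 572 and 575 (1.09 ± 0.17, adjusted p = 0.00642). Gzmc lay at 49.8, 54.9 and 41.8 against 12.7, 10.4 and 11.4 (1.99 ± 0.27, adjusted p = 0.00385). Among helper lineage factors Bcl6, which opposes effector differentiation and directs follicular cells, lay at 70, 77.6 and 54.5 against 209.6, 183 and 213 (-1.58 ± 0.18, adjusted p = 0.00237).

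Interferon-inducible genes fell on balance, with exceptions. Of 20 members of the guanylate-binding protein, immunity-related GTPase and p200 families, which act against intracellular pathogens and sense DNA, 10 fell and 2 rose, and the median log2 fold change was -0.67. Ifi213, of the p200 family, lay at 51.2, 49.2 and 47.2 in activated and at 265, 232 and 195 in resting tTregs (-2.20 ± 0.17, adjusted p = 0.000554). Ifi208 lay at 148, 228 and 225 against 608, 514 and 482 (-1.43 ± 0.20, adjusted p = 0.00438). Gbp2 moved the other way, at 4413, 6341 and 6319.5 against 3185, 2756 and 2541 (1.00 ± 0.17, adjusted p = 0.00781), as did Gbp5 (0.69 ± 0.16). Of 27 further interferon-stimulated genes 7 fell and 2 rose. Ifit2, which binds foreign RNA, lay at 131, 232 and 234 against 539, 369 and 383 (-1.14 ± 0.26, adjusted p = 0.0203). Bst2, which tethers virus particles to the cell surface, lay at 486, 388 and 441 against 248, 224 and 233 (0.89 ± 0.14, adjusted p = 0.00643). With libraries left out in the order activated 1, 2 and 3 and resting 1, 2 and 3, the falls were 5, 13, 4, 7, 5 and 8 in the first list and 1, 10, 1, 2, 1 and 5 in the second.

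Members of the joint guanylate-binding and p200 list that moved in opposite directions held the same promoter motif. The core of the interferon-stimulated response element, a GAAA followed after any 2 bases by another GAAA on either strand, was found in 13 of 17 promoters of the guanylate-binding and p200 list (76.5%) and in 52.0% of those of the interferon-stimulated genes, against 3.17% of all 11047 promoters searched (RefSeq, GRCm38.p6, 250 bases before to 50 after the start). It was found in 3.53% of the promoters of genes that rose and in 5.53% of those of genes that fell. The 80 bases around the motif are shown for a p200 member that fell and a guanylate-binding member that rose, with the motif in capitals.
Ifi213 (chr1:173599296-173599375, minus strand): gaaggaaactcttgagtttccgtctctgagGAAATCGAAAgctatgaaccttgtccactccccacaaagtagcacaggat
Gbp2 (chr3:142620574-142620653, plus strand): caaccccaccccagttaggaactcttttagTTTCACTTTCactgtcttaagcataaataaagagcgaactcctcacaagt
A match describes the letters of the window and does not show that a factor binds there.

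Genes that mark naive and quiescent T cells fell. Of 29 tested, 12 fell and 2 rose, with a median log2 fold change of -0.48. Btg1, which holds cells out of the cycle, lay at 4176, 3866 and 4134 against 8074, 8984 and 7209.8 (-0.99 ± 0.12, adjusted p = 0.00265). Slfn2, needed to keep T cells quiescent, lay at 1357, 2101 and 1429.6 against 4183, 3602 and 3367 (-1.21 ± 0.18, adjusted p = 0.00572). Klf3, a Krüppel-like repressor, lay at 729, 863 and 832 against 1748, 1699.8 and 1483 (-1.02 ± 0.13, adjusted p = 0.00298). In each the groups were apart. Bach2, which restrains effector programs, fell by 0.71 on the log2 scale (SE 0.13, adjusted p = 0.01). Others of the group did not pass the thresholds, among them Tcf7 (-0.14, adjusted p = 0.425) and Klf2 (-0.56, adjusted p = 0.0508). The number of falls was 6 without resting replicate 2 and 7 without activated replicate 3, and 10 or 11 without any other library. Of 8 GIMAP GTPases, which support lymphocyte survival and lie close together on chromosome 6, 6 fell and 0 rose. Gimap4 lay at 2548, 3908 and 2171 against 10025, 7552 and 7932 (-1.60 ± 0.22, adjusted p = 0.00417). The GIMAP count was 2 without activated replicate 1 or 3 or without resting replicate 1 or 2.

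Among the lists, those of the cell cycle had the highest median log2 fold changes. Of 62 genes of mitosis and the kinetochore, 44 rose and 0 fell, and the median log2 fold change was 1.71. Of 52 genes of DNA replication and S phase, 34 rose and 0 fell, with a median of 1.05. Top2a, which untangles chromosomes, lay at 540, 637 and 659 in activated and at 159.7, 126 and 146 in resting tTregs (2.08 ± 0.15, adjusted p = 0.000436). Mki67, the standard marker of cycling cells, lay at 229, 267 and 278 against 133, 118 and 94.5 (1.16 ± 0.18, adjusted p = 0.00594). Resting tTregs thus held cycle transcripts above the floor for these genes, whereas others started from almost none. Hmmr, a spindle protein, lay at 21.5, 18.9 and 18.2 against 0 in each resting library, so that no fold is given. Aurkb, the kinase of the chromosomal passenger complex, lay at 92.9, 114 and 72.7 against 9.07, 15.6 and 6.83 (3.08 ± 0.34, adjusted p = 0.00177).

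Among replication genes, Mcm5, of the replicative helicase, lay at 1339, 1701 and 1522 against 525, 415 and 403 (1.76 ± 0.15, adjusted p = 0.000794). Uhrf1, which guides maintenance DNA methylation at the fork, lay at 553, 553 and 656 against 89.8, 104 and 92.3 (2.61 ± 0.14, adjusted p = 0.000433). Dtl, which directs the licensing factor CDT1 to degradation, lay at 217, 229 and 216 against 17.2, 24.7 and 22.8 (3.31 ± 0.20, adjusted p = 0.000433). Pcna did not pass the test, at 939, 1378 and 828 against 997, 834 and 846 (0.20 ± 0.19, adjusted p = 0.489). The regulators of G1 changed less. Of 28 tested, 6 rose and 1 fell, and 2 or 3 rose without any of the activated libraries. Cdkn1a, the inhibitor p21, lay at 442, 434 and 365 against 142, 127 and 144 (1.58 ± 0.14, adjusted p = 0.000992). E2f7 and E2f8, repressors of the E2F family that limit S phase genes, rose by 2.77 ± 0.46 and 3.68 ± 0.62 on the log2 scale, from resting values at the level of a few reads. Without an activated library 25 (replicate 3) to 28 mitosis genes rose, and without a resting library 37 to 40. For replication the counts were 21 (activated replicate 3) to 29 and 27 to 34.

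Promoters of the cell cycle lists held motifs that are known for these genes. An E2F site (TTTGGCGC or TTTCCCGC, either strand) was found in 14 of 52 promoters of the replication list (26.9%) and in 8.93% of those of the mitosis list, against 3.05% of all. The cell cycle homology region element (TTTGAA, either strand) was found in 37 of 56 mitosis promoters (66.1%), against 12.2% of all. It was found in 17.3% of replication promoters and in 8 of 17 promoters of the guanylate-binding and p200 list (47.1%). Among promoters of genes that rose, 150 of 936 held it, and among those of genes that fell, 109 of 778. CCAAT, bound by NF-Y, was found in 67.9% of mitosis, 55.8% of replication and 38.3% of all promoters, and was more frequent still in those of the cholesterol list. Stretches of 80 bases from 3 of the genes with the largest rises show these motifs in capitals.
Dtl (chr1:191575545-191575624, minus strand; CCAAT, then E2F): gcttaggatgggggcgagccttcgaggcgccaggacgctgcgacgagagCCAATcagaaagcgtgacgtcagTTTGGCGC
Cdc6 (chr11:98907981-98908060, plus strand; E2F on the other strand): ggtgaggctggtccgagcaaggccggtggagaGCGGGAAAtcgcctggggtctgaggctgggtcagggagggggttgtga
Ube2c (chr2:164769829-164769908, plus strand; 2 CCAAT and a TTTGAA, all on the other strand): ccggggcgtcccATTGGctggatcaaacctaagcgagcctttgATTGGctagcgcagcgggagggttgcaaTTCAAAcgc
Dtl and Cdc6 act in replication, and Ube2c, the ubiquitin-conjugating enzyme of the anaphase-promoting complex, in mitosis. Cdc6, which loads the helicase, lay at 72.7, 108 and 89 against 8.16, 1.3 and 6.83 (4.03 ± 0.52, adjusted p = 0.00342), and Ube2c at 88.9, 64.3 and 76.3 against 8.16, 1.3 and 9.11 (3.69 ± 0.55, adjusted p = 0.00571).

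**Figure D4:**
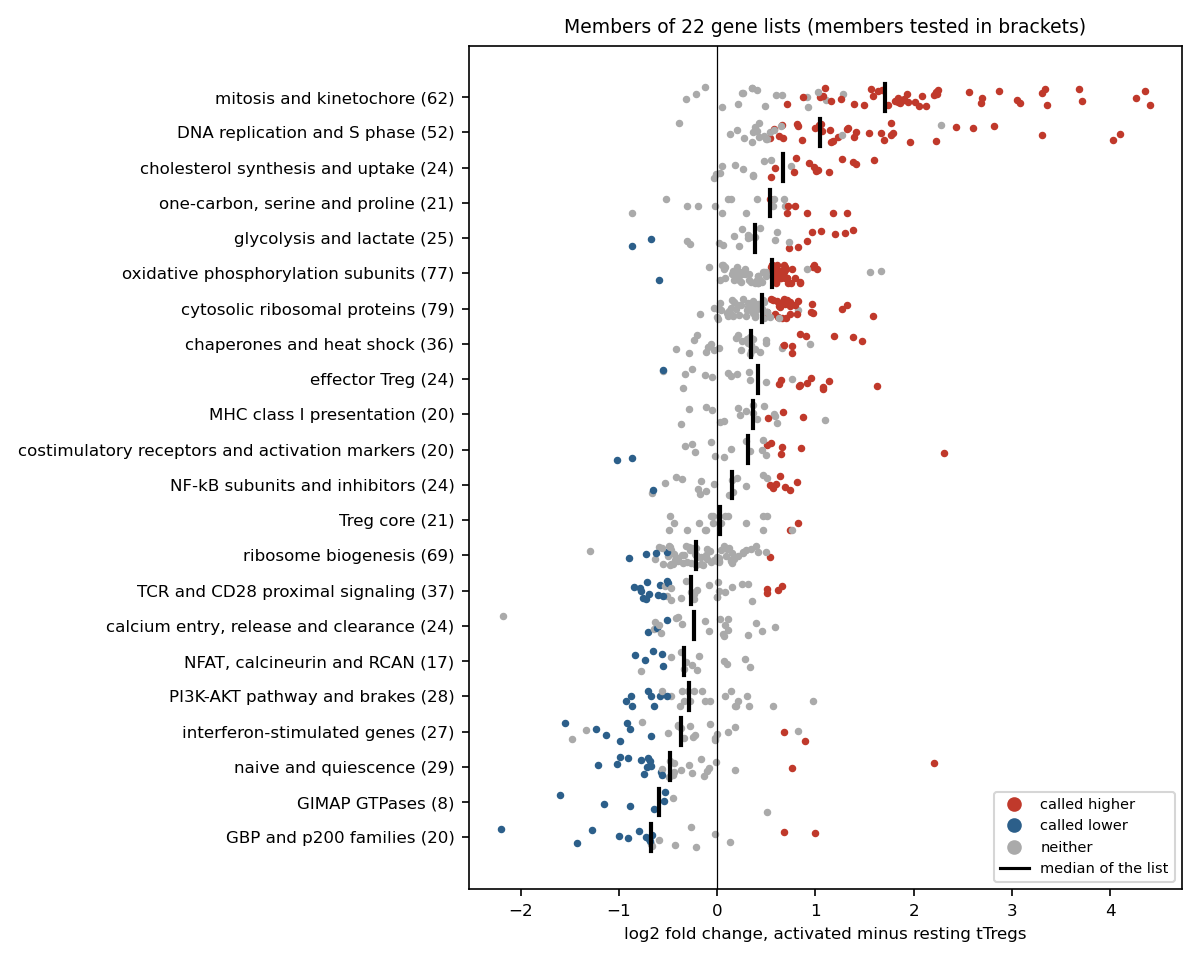
Gene lists by function in activated against resting tTregs. Each point is a member, placed by its log2 fold change and colored by whether it rose, fell or did neither, and the bar is the median of the list. Among the 22 lists shown, mitosis and DNA replication have the highest medians, 1.71 and 1.05, and the guanylate-binding and p200 families the lowest, -0.67.

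Of the metabolic groups, cholesterol synthesis and uptake had the highest median log2 fold change. Of 24 genes, 13 rose and 0 fell, with a median of 0.67. Sqle, the squalene epoxidase, lay at 1169, 754 and 1169.8 in activated and at 300.3, 317 and 387 in resting tTregs (1.60 ± 0.20, adjusted p = 0.00296). Mvk, the mevalonate kinase, lay at 420.1, 380.3 and 436 against 156, 147 and 159 (1.41 ± 0.13, adjusted p = 0.00103). Idi1, an isomerase of the same pathway, lay at 1091, 1397 and 1439 against 556, 515 and 539.9 (1.27 ± 0.14, adjusted p = 0.0018). Of the transcription factors that govern these genes, Srebf1 rose (0.97 ± 0.20, adjusted p = 0.0157) and Srebf2 did not pass the test (0.37 ± 0.15, adjusted p = 0.119). Without activated replicate 3 or resting replicate 2, 8 of the list rose, and 9 to 11 without any other library.

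In glycolysis 8 of 25 genes rose and 2 fell. Tpi1, a middle enzyme of the pathway, lay at 2552, 2708 and 2299.6 against 1126, 991 and 943 (2.47-fold, adjusted p = 0.0011). Hk2, the inducible hexokinase, lay at 159, 97.4 and 169 against 49, 76.6 and 55.8 (1.20 ± 0.26, adjusted p = 0.0192), and Slc16a3, an exporter of lactate, at 790.5, 479 and 737 against 190.5, 257 and 316 (1.39 ± 0.24, adjusted p = 0.00879). Glucose transporters did not follow. Slc2a1 (GLUT1) lay at 499.6, 499.5 and 483 against 493, 467 and 462 (0.06 ± 0.12, adjusted p = 0.747), and Slc2a3 (GLUT3) fell by 0.67 on the log2 scale (SE 0.16, adjusted p = 0.0256). Pdk1, the kinase that shuts pyruvate out of the mitochondrion, fell by 0.87 (SE 0.17, adjusted p = 0.0117).

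Nuclear-encoded subunits of oxidative phosphorylation rose in 37 of 77 cases and fell in 1, with a median log2 fold change of 0.55. These genes are short, and with the trend on exon length removed 12 rose and 1 fell, with a median of 0.25. Uqcrq, of complex III, lay at 2517, 1619.7 and 2227 against 925, 1177 and 1063 (0.99 ± 0.18, adjusted p = 0.00983, and 0.81 with the trend removed). The count of rises was 14, 38 and 10 without activated replicate 1, 2 or 3, and 28, 19 and 28 without resting replicate 1, 2 or 3. Transcripts encoded by the mitochondrial genome took the other direction: of 13, 0 rose and 2 fell, mt-Co1 (-0.63, adjusted p = 0.047) and mt-Nd4 (-0.59, adjusted p = 0.0472). The falls were 1, 4 and 0 without activated replicate 1, 2 or 3 and 0 without any of the resting libraries, and 8 with the trend on exon length removed. They made up 1.13 to 1.72% of the normalized counts in activated and 1.8 to 2.08% in resting tTregs.

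Pathways that supply building blocks rose in part. In one-carbon, serine and proline metabolism 7 of 21 genes rose and 0 fell. Phgdh, the first enzyme of serine synthesis, lay at 4889.6, 4951 and 5573 against 2880.1, 2629 and 2666 (0.91 ± 0.11, adjusted p = 0.00285), and Pycr1, of proline synthesis, at 131, 122 and 122 against 60.8, 48 and 41 (1.32 ± 0.20, adjusted p = 0.00581). In purine and pyrimidine synthesis 6 of 22 rose and 0 fell, and 3 rose with the length trend removed, by edgeR or with quantile normalization. Without activated replicate 3 or resting replicate 2, 2 of this list rose. Of 25 genes of the TCA cycle 5 rose and 0 fell, with 3, 5, 3, 4, 2 and 6 rises when libraries were left out in the order activated 1, 2 and 3 and resting 1, 2 and 3. In fatty acid metabolism Cpt1a, which admits fatty acids to the mitochondrion for oxidation, lay at 809, 879.9 and 1048 against 581, 431 and 470.4 (0.89 ± 0.16, adjusted p = 0.00958).

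The translation machinery split by part. Of 79 cytosolic ribosomal protein genes 30 rose and 0 fell (median log2 fold change 0.46), and of 78 mitochondrial ones 18 rose and 0 fell (0.27). With the trend on exon length removed these counts were 15 rises with 1 fall, and 6 rises. With quantile normalization 14 cytosolic ones rose. Of the mitochondrial ones 6 rose without activated replicate 1 or 3 and 4 without resting replicate 2. Rps26 lay at 17042, 13212 and 15347 against 5518, 6685 and 5943 (1.33 ± 0.13, adjusted p = 0.00132), though ribosomal protein genes have near-identical pseudogene copies, which makes their counts uncertain. Mrps6, of the mitochondrial ribosome, lay at 1213, 991 and 1193 against 421, 466 and 449.9 (1.34 ± 0.13, adjusted p = 0.00118). By contrast, of 69 genes of ribosome biogenesis 1 rose and 4 fell (median -0.21). These shares were 1.45% and 5.8%, against 8.81% and 6.97% of all genes tested, so that the falls were near the share over all genes. Of 22 aminoacyl-tRNA synthetases 0 passed the thresholds in either direction by limma, with 5 at an unadjusted p under 0.05, and 0 by edgeR or DESeq2. By edgeR 8 biogenesis genes fell, and with libraries left out in the order activated 1, 2 and 3 and resting 1, 2 and 3, 1, 13, 2, 2, 1 and 5 fell. Nol8, a nucleolar protein, lay at 281, 367 and 345 against 653, 648 and 549 (-0.90 ± 0.15, adjusted p = 0.00781). Ncl, which encodes nucleolin, did not pass the test (0.18 ± 0.12, adjusted p = 0.313).

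Protein folding genes rose in part. Of 36 chaperone genes 9 rose and 0 fell, with a median log2 fold change of 0.34. Hsp90ab1 lay at 26405, 31649 and 31007 against 14041, 13233 and 11750 (1.19 ± 0.12, adjusted p = 0.00148), and Hspe1, of the mitochondrial chaperonin, at 2342, 2306 and 2187 against 781, 916 and 761 (1.48 ± 0.12, adjusted p = 0.000606). Hspa5, the chaperone of the endoplasmic reticulum, rose by 0.90 ± 0.20 (adjusted p = 0.019). Without activated replicate 3 or resting replicate 2, 5 chaperone genes rose. Of 48 proteasome genes 4 rose and 0 fell, and 2 rose with the length trend removed. The share that rose, 8.33%, was close to the 8.81% of all genes tested.

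The same contrast in Tconvs gave 24.4% of 11173 genes higher and 26.2% lower after activation. These came from the fit over the 12 libraries, and the tTreg counts above from the fit over 6, so that the counts do not rank the responses of the 2 cell types. Replicates were tighter in Tconvs, with a median SD of 0.10 on the log2 scale against 0.21 in activated and 0.19 in resting tTregs. TCR stimulation is described for both cell types, but whether its length and dose were the same is not given in the sources used here. Of the 953 genes that rose in tTregs, 710 (74.5%) rose and 32 fell in Tconvs, and of the 754 that fell, 508 (67.4%) fell and 47 rose. The difference between the responses, tested as an interaction over the 12 libraries, was above 0 for 17.7% of genes and below 0 for 16.7%.

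By this test 39 of 52 replication genes responded less in tTregs than in Tconvs and 1 more. The median log2 fold change of that list was 2.00 in Tconvs. For mitosis, 15 of 64 differed below 0 and 7 above. Mcm5 went from 450.2 to 4929 normalized counts in Tconvs, and its response in tTregs was smaller (difference of the log2 fold changes -1.69 ± 0.16, adjusted p = 5.45e-06). For Mki67 the difference did not pass the test (-0.19 ± 0.27, adjusted p = 0.619). Ribosome biogenesis differed in 49 of 69 genes below 0, with 40 rising in Tconvs, and tRNA synthetases in 16 of 22, with 20 rising in Tconvs. Of 79 cytosolic ribosomal proteins 15 differed above 0, near the 17.7% of all genes tested. In this list 1 gene differed below 0, where 16.7% of all genes did. For cholesterol genes 14 of 24 differed below 0 and 0 above, and for oxidative phosphorylation 26 of 77 below and 1 above.

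Part of these differences came with unlike resting levels. Myc lay at a mean of 380 in resting and 3472 in activated Tconvs, while resting tTregs already held 2737 to 3640.2 (difference -2.98 ± 0.22, adjusted p = 8.8e-07). Nr4a1 lay at a mean of 10.7 in resting Tconvs, 65.5 in activated Tconvs and 288 to 308 in resting tTregs (difference -2.52 ± 0.19, adjusted p = 1.09e-06). Il7r showed the reverse, with a mean of 20684 in resting and 649 in activated Tconvs against 1267 to 1753 and 746 to 892 in tTregs (difference 4.08 ± 0.16, adjusted p = 3.67e-09). In the quiescence list 16 of 30 genes differed above 0, that is, fell less or rose more in tTregs, and 4 below. In the guanylate-binding and p200 families 13 of 20 differed below 0 and 6 above, and members of either kind include Gbp5, which rose from 39.9 to 2405 in Tconvs, and Ifi208, which fell there from 2834 to 176.

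**Figure D5:**
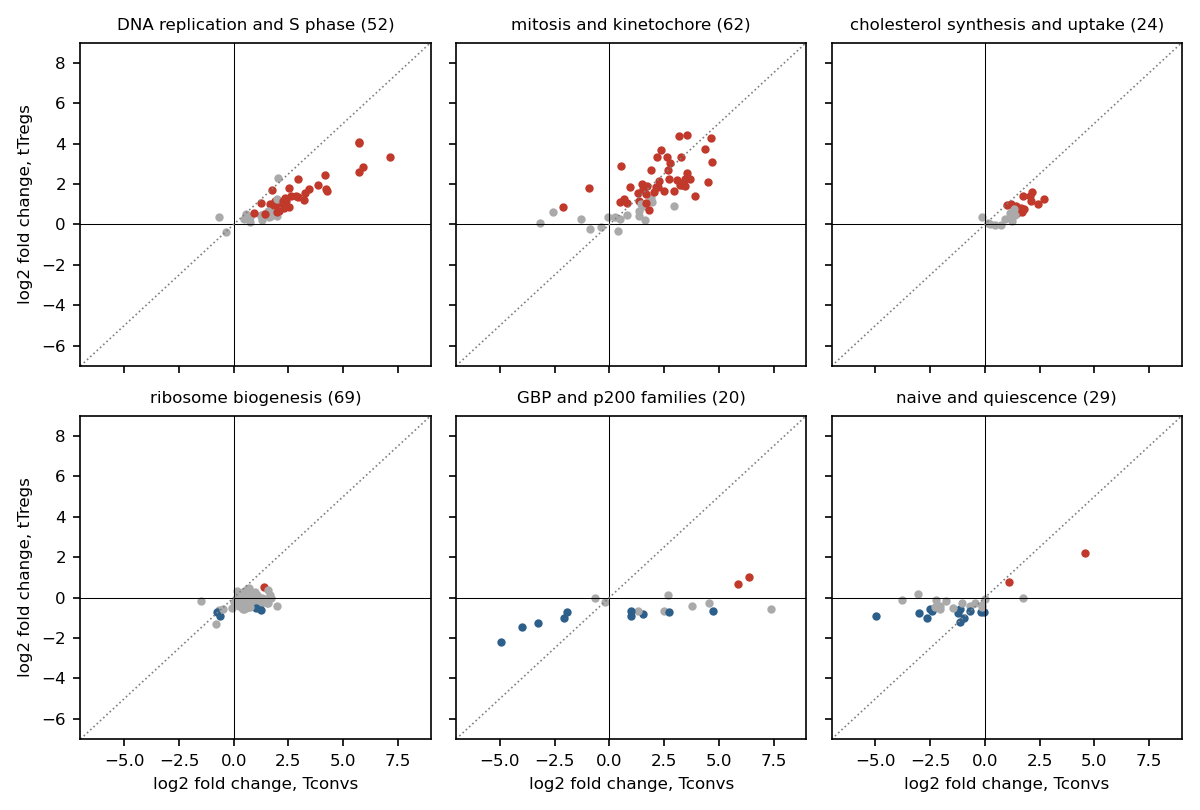
Response to activation in tTregs against Tconvs, for the members of 6 lists. Each point is a gene, placed by its log2 fold change (activated minus resting) in Tconvs and in tTregs and colored by whether it rose, fell or did neither in tTregs; the dotted line marks equal responses. Most replication genes lie below that line, with a median of 2.00 in Tconvs against 1.05 in tTregs.

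With the tTreg calls also taken from the fit over the 12 libraries, which shares its estimate of spread with Tconvs and calls genes that the fit over 6 does not, 132 genes passed the thresholds in both cell types in opposite directions, 51 higher in activated tTregs and lower in activated Tconvs and 81 the reverse. Gpr183, a receptor for oxysterols that positions cells in lymphoid tissue, lay at 639.6, 554 and 708 in activated and at 499.8, 374 and 443 in resting tTregs, and went from a mean of 4429 to 376 in Tconvs (difference 4.09 ± 0.18, adjusted p = 9.73e-09). Iigp1, an immunity-related GTPase, lay at 280.1, 381 and 341 against 639, 479 and 475 in tTregs and went from 352 to 9393 in Tconvs (difference -5.40 ± 0.19, adjusted p = 2.08e-09). P2rx7, the ATP-gated channel, fell in tTregs (-0.61 ± 0.13) and rose in Tconvs (0.85), with a difference of -1.47 ± 0.16 (adjusted p = 1.82e-05). Mcl1, a survival factor of the BCL2 family, lay at 1126, 1396 and 1092 against 1927, 1901 and 1730.1 in tTregs and rose from 1034 to 1501 in Tconvs (difference -1.17 ± 0.13, adjusted p = 2.46e-05).

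Genes of other cell types were checked in the same libraries. The summed level of 12 B cell markers was 135 to 169 normalized counts in activated and 170 to 184 in resting tTregs, that of red cells, platelets and neutrophils 5 to 9 against 8 to 15, and that of NK and CD8 T cells 251 to 350 against 263 to 298. Of the 3 NK and CD8 markers that could be tested, Nkg7, a protein of cytolytic granules, rose, at 116, 145 and 105 against 63.5, 55.8 and 42.1 (1.17 ± 0.22, adjusted p = 0.0112). Cd8b1 (-0.38) and Prf1 (-0.64, log2 fold changes) leaned lower without passing the thresholds, and edgeR called 1 of the list lower. Gzmb and Gzmc moved in the same direction as Nkg7, and the part of other cell types in these rises was not tested. Myeloid and dendritic cell markers summed to 1312 to 1808 against 775 to 1005, nearly all of it Cst3, which T cells also express and which lay at 1804, 1305 and 1500.4 against 881, 763 and 988. The other myeloid markers were too low to be tested.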

How the data were processed

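Poly-A RNA was amplified by a modified SMART-seq2 protocol without molecular identifiers. The authors trimmed reads with cutadapt 1.18, aligned them with STAR 2.5.3 to mm10, counted genes with RSEM 1.3.0 on a GENCODE GRCm38 annotation, and deposited counts divided by DESeq2 1.26 size factors, a signal per gene and sample. Multiplied by a factor found for each library, 100% of the values came out whole (tolerance 0.01), which gave the depth, 5256800 to 9893053 reads on genes; floors of 3 reads cover counting error only.

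Groups came from the sample labels. Tested were the 10814 of 21950 genes that reached 10 normalized counts in 3 or more of the 6 tTreg libraries, with limma 3.58.1 (R 4.3.3, trended prior, two-sided) on log2(value + 1), so that fold changes of low genes are understated, with Benjamini-Hochberg adjusted p under 0.05 and absolute log2 fold change above 0.5. The difference between tTregs and Tconvs was an interaction over 12 libraries (11173 genes). edgeR 4.0.16 and DESeq2 1.42.0 on the recovered reads, other scalings, filters and pseudocounts, a replicate block and leaving out each library were alternatives, and removal of an exon length trend was added after seeing the data. The fits were tested on simulated data.

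Named were up to 6 members per list with the largest changes, members with a defining role, and the 15 largest rises and falls with groups apart and a higher group mean of at least 50. The lists, motifs and members were chosen with earlier results of these data known. Exon lengths and overlaps came from a GENCODE GRCm38 release that may differ from the authors', and 99.4% of the genes tested had a length. Of 17 motifs searched, 5 are reported. Some genes are not reported here.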

Additional observations from a re-analysis of the deposited data

Results flagged for a closer look

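The response to activation differed between tTregs and Tconvs, tested as an interaction over 12 libraries, most widely in these genes among those that passed the thresholds in opposite directions. The difference (tTreg minus Tconv, log2 scale) was 7.58 for Lypd6b, which lay at 4.04, 9.46 and 12.7 normalized counts in activated tTregs and had no read in resting ones, so that its size depends on the pseudocount. It was 6.01 for Pcsk1, a prohormone convertase near the level of a few reads in tTregs, 4.09 for Gpr183, 3.98 for Trpm1, a cation channel, and 3.69 for Tubb3, a tubulin. In the other direction it was -6.77 for Il12rb2, the signaling chain of the IL-12 receptor, -6.65 for Ccdc141, -6.47 for Gm4951, -6.0 for Ticrr, which acts in replication initiation, and -5.40 for Iigp1. In the fit on the 6 tTreg libraries alone, Il12rb2 did not pass the threshold (-1.16 ± 0.45, adjusted p = 0.104), and Lypd6b, Pcsk1 and Ccdc141 were too low to be tested.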

How the results depend on the processing

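With 1707 genes past the thresholds (953 higher, 754 lower), the counts without one library ran from 600 to 1890 in all, from 355 to 969 higher and from 228 to 921 lower. At an absolute log2 fold change above 1 they were 542, 363 and 179, with the replicate block 292, 224 and 68, and with spread estimated over 15 libraries 2517, 1366 and 1151. TMM scaling gave 863 higher and 902 lower, so that higher calls no longer outnumbered lower ones, and edgeR gave 867 and 888. The other scalings, pseudocounts and filters, DESeq2 and the removal of the exon length trend stayed within 1.5 times of the counts above. For the difference between tTregs and Tconvs, 3843 genes, the count was 1958 above a log2 difference of 1, 3667 with the replicate block and 3481 to 4182 without one library. The labels number replicates 1 to 3 in both groups, but deviations from the group mean of same-numbered libraries correlated at -0.48 to -0.16 and of different-numbered ones at -0.27 to 0.51, so the numbers were not taken as pairs. None of the called named genes changed direction under any of these settings. They were chosen past the thresholds for large changes, so that a change of direction was unlikely from the start. Of 272 called named genes, 271 stayed past the thresholds over 15 libraries, 261 by edgeR, 267 by DESeq2, 224 with the length trend removed and 92 with the replicate block. Without activated replicate 3, 136 of 258 stayed. The depth does not resolve genes below about 10 normalized counts.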

Other observations

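Among 60 chromatin remodelers and histone modifiers, 11 fell and 2 rose in activated tTregs, with 2 falls once the exon length trend was removed and 3 to 9 without one library. Kdm6b, a demethylase of histone H3 lysine 27, lay at 156, 121 and 153 normalized counts against 243, 410 and 293 (log2 fold change -1.11 ± 0.21, adjusted p = 0.0123), and Chd2, a chromatin remodeler, at 813, 1075 and 957 against 2070.1, 1806 and 1622 (-0.95 ± 0.15, adjusted p = 0.00643). Of 17 writers and erasers of DNA methylation 4 rose and 0 fell, but the median log2 fold change was -0.18 and 7 were above 0. By edgeR and with quantile normalization 1 fell. Gadd45b, a stress-response gene linked to demethylation, lay at 745, 427 and 725 against 179, 214 and 252 (1.52 ± 0.24, adjusted p = 0.00635), and Dnmt1, the maintenance methyltransferase, rose by 0.54 ± 0.15 (adjusted p = 0.0408).

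In the BCL2 family 1 of 15 genes rose (6.67%) and 2 fell (13.3%), against 8.81% and 6.97% of all genes tested. Bcl2l1, which encodes the survival protein BCL-XL, lay at 813, 961 and 941 against 569, 599 and 499 (0.70 ± 0.13, adjusted p = 0.0115), and Bcl2l11, which encodes the death inducer BIM, at 529, 491 and 618 against 1003, 916 and 882 (-0.78 ± 0.13, adjusted p = 0.00849). Bcl2 did not pass the test (-0.01, adjusted p = 0.947). Of 18 p53 target genes 4 rose and 0 fell (2 to 4 rises without one library), among them Perp, whose values were uneven (168, 69.1 and 43.6 against 5.44, 7.79 and 43.3). Of 45 splicing genes 8 rose and 1 fell, with 3, 9 and 2 rises without activated replicate 1, 2 or 3 and 6, 4 and 5 without resting replicate 1, 2 or 3; of the risers, Snrpf shares 85.4% of its exon bases with another gene. Jak3, the kinase of the common gamma chain, lay at 2340.5, 1394 and 2574 against 791, 1222 and 1109 (0.99 ± 0.25, adjusted p = 0.0313).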
